A study of Mus musculus with 2 samples.

Results

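The 6 microRNA genes Mir1a-1, Mir133a-2, Mir1a-2, Mir133a-1, Mir206 and Mir133b form 3 bicistrons, that is, loci where a miR-1 family gene and a miR-133 family gene lie near each other on the same strand. They were chosen by name in the GENCODE M21 annotation, as 6 of the 2202 microRNA genes counted. The rule uses no measured value, but the genes were proposed with earlier results of these data known. Small RNA below 30 nt was sequenced from heart tissue of 4-day-old females of the B6CASTF1/J hybrid mouse strain. There were 2 libraries in 1 group. Animal 3 gave replicate 1 and animal 4 gave replicate 2, each as technical replicate 1, with the same donor entry for both in the labels. No treatment, genotype or second tissue was named, so no conditions could be compared. Each test below sets 1 library against the other.

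miR-1 and miR-133 are the classic muscle microRNAs. Their primary transcripts hold a hairpin of each family, and in heart and skeletal muscle they are switched on by muscle transcription factors. miR-1 is known for promoting differentiation and restraining growth of cardiac muscle, and miR-133 for restraining smooth muscle genes and growth signalling. miR-206 shares the seed of miR-1, the stretch near the 5′ end that pairs with target messages, and is known mainly from skeletal muscle, as is its partner miR-133b. The pairs of miR-1 copies and of miR-133a copies lie on different chromosomes, and each pair shares an identical stretch that holds its family's seed. A read wholly within that stretch cannot be tied to 1 gene.

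RefSeq entries (build GRCm38.p6, the mm10 assembly) were matched by symbol, which gave a hairpin for 2 members and a mature sequence for 3, with 5 mature sequences in all. They are shown because the counts of these genes depend on how far a read can be told from its relatives. In the hairpins of the Mir206 locus, at chr1:20679010-20679082 and chr1:20682769-20682887 on the plus strand, capitals mark the mature arms. In the mature sequences capitals mark the seed, bases 2 to 8 from the 5′ end. The miR-206 arms lie at chr1:20679017-20679039 and chr1:20679055-20679076, the miR-133b arms at chr1:20682797-20682818 and chr1:20682834-20682855, and the miR-1a-1 5′ arm at chr2:180389057-180389079, all on the plus strand.
Mir206 hairpin: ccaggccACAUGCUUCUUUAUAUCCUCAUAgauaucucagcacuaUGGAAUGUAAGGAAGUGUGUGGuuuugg
Mir133b hairpin: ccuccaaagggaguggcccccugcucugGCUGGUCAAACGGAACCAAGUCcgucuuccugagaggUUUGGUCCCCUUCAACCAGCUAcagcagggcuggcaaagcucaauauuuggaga
mmu-miR-206-5p: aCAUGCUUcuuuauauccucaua
mmu-miR-1a-1-5p: aCAUACUUcuuuauaugcccaua
mmu-miR-206-3p: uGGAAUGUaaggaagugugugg
mmu-miR-133b-5p: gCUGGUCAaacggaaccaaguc
mmu-miR-133b-3p: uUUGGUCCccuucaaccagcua

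The miR-206 and miR-1a-1 5′ arms had 20 of 23 bases in common. Counted from the 5′ end, with the miR-206 base first, they differed by G5A, C17G and U19C, and the first of these lies in the seed. The table of RefSeq entries held no mature entry for Mir1a-2, Mir133a-1 or Mir133a-2 and no 3′ arm of Mir1a-1. Counts of seeds in it therefore leave these out. Of its 1738 mature entries, 3 held the miR-206-3p seed GGAAUGU, namely miR-206-3p, miR-6349 and miR-6382. The other 4 printed seeds were each held by 1 entry. The letters GGAAUGU also stood in the hairpins of Mir1a-1 (bases 50 to 56) and Mir1a-2 (bases 48 to 54). The miR-133b-3p seed UUGGUCC stood in those of Mir133a-1 (bases 44 to 50) and Mir133a-2 (bases 60 to 66). In full length, the 5 mature sequences were found in no other microRNA hairpin of the annotation.

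The arms differed in how much shortening they bore. Both miR-206 arms and the miR-1a-1 5′ arm remained without a match elsewhere after up to 4 bases were cut from the 3′ end. miR-133b-3p, in contrast, matched both miR-133a hairpins as soon as 1 base was cut, since its nearest relatives differ from it by 1 base. At full length miR-206-3p had 4 mismatches to its nearest hairpins (Mir1a-1, Mir1a-2 and Mir1b), the most of the 5.

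A read that matches several places is in no gene's count, so each hairpin was cut into all windows of 22 nt and each window was looked up in the other microRNA hairpins on both strands. All 52 windows of Mir206 and all 98 of Mir133b were found at a single place. The shares were lower for the copies: 49 of 56 windows of Mir1a-1 (87.5%), 44 of 51 of Mir1a-2 (86.3%), 70 of 83 of Mir133a-2 (84.3%) and 34 of 47 of Mir133a-1 (72.3%). The shared windows of the miR-1 genes covered bases 45 to 72 of Mir1a-1 and 43 to 70 of Mir1a-2, an identical stretch of 28 nt that holds the GGAAUGU seed. Those of the miR-133a genes covered an identical stretch of 31 nt with the UUGGUCC seed (bases 38 to 68 of Mir133a-1 and 54 to 84 of Mir133a-2) and a shorter one in the other arm (bases 5 to 28 and 21 to 44). At windows of 18 nt, nearer to a trimmed read, the share was 96.1% for Mir133b, 58.8% for Mir133a-1 and 100% for Mir206. The counts of the 4 copies can therefore hold reads from the rest of the hairpin but none of 22 nt that lies wholly within those stretches. The windows with the seed at their bases 2 to 8 were all shared. They start at base 49 of Mir1a-1, 47 of Mir1a-2, 43 of Mir133a-1 and 59 of Mir133a-2. A 22-nt read of that window is thus in no copy's count, and the shares above are of windows and not of reads. Sequence outside microRNA hairpins was not searched.

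**Figure D1:**
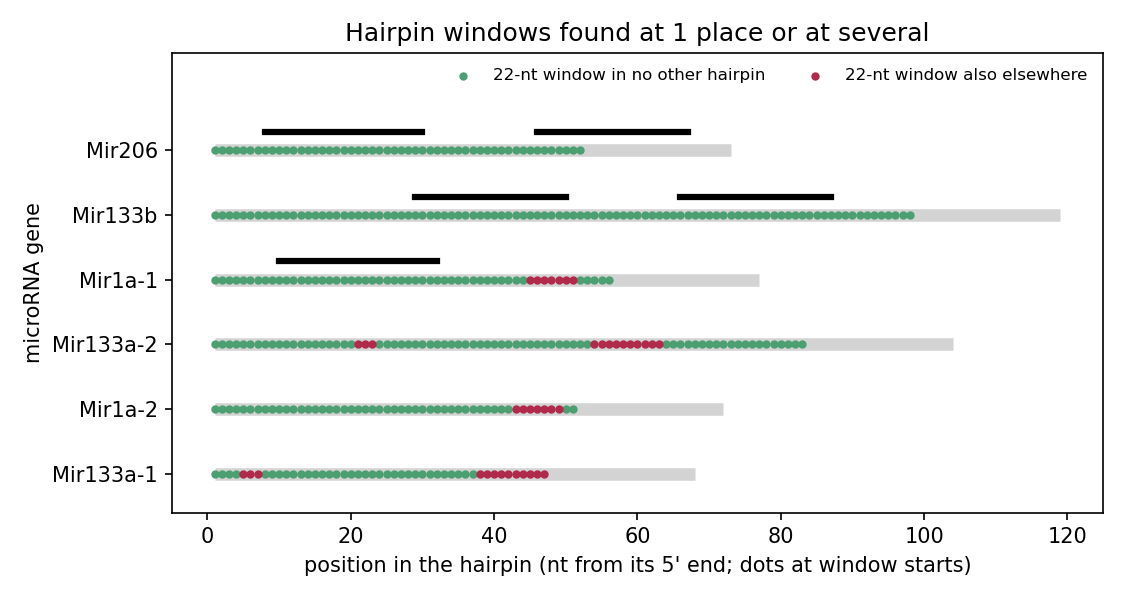
Windows of 22 nt along each of the 6 hairpins, by the position of the window's first base (nt, x axis) and gene (y axis), coloured by whether the window was found at a single place or also in another microRNA hairpin, with the printed mature arms marked. All windows of Mir206 and Mir133b were at a single place, while Mir1a-1, Mir1a-2, Mir133a-1 and Mir133a-2 each had a run of shared windows over the 3′ side of the hairpin.

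The loci were on 3 chromosomes (mm10, 1-based). Mir206 and Mir133b lie on chromosome 1, 3686 bases apart, in the noncoding gene Gm28653 (20669882 to 20684298, plus strand). Mir133b is wholly within an exon of it and Mir206 partly. Mir1a-1 (chromosome 2, 180389048 to 180389124, plus strand) and Mir133a-2 (180398379 to 180398482) are 9254 bases apart, overlap no other GENCODE gene and lie within the RefSeq noncoding gene Mir1a-1hg (180385604 to 180401802). Mir133a-1 (chromosome 18, 10782909 to 10782976, minus strand) and Mir1a-2 (10785481 to 10785552) are 2504 bases apart, in introns of the noncoding gene Mir133a-1hg on the same strand and of the protein-coding gene Mib1 on the opposite strand. Mir1a-2 also lies wholly inside Mir1b, a microRNA gene of the opposite strand (10785446 to 10785567).

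Over all genes, replicate 1 held 6417302 counts on the genes' own strand and replicate 2 held 5662222, so 3 counts correspond to 0.467 and 0.530 CPM (counts per 1000000 own-strand counts of a library). Of all reads, 39.6% and 43.2% were multi-mapped and stood in no gene's count. The libraries differed by more than sampling noise (chi-square of 709 per degree of freedom). As a check of the tissue label, the 3 microRNA genes in introns of cardiac and slow myosin genes were read. They were Mir208a (10883 and 6019 CPM), Mir208b (7457 and 5640 CPM) and Mir499 (2653 and 7487 CPM). Each was well above the counted level of every one of the 6 members in both libraries. Reads wholly within the stretches shared between copies are not counted, so this does not rank the miR-1 or miR-133a products. Summed over marker lists, replicates 1 and 2 held 797 and 306 CPM of the 5 erythroid genes (Mir451b at 0), 1783 and 1548 of 6 leukocyte genes, 51830 and 73011 of 2 endothelial genes, 47055 and 60331 of 3 smooth muscle genes (Mir145b at 0) and 20757 and 41731 of 6 fibroblast genes (Mir199a-1 at 0). They held 595 and 662 CPM of 7 epithelial genes, 307 and 224 of 9 neuronal genes (Mir124a-1, Mir124a-2, Mir124a-3 and Mir9-1 at 0), 105 and 86.2 of the liver gene Mir122 and 139 and 134 of 3 brown fat genes. The list of skeletal muscle markers held only Mir206 and Mir133b.

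Together the 6 members had 4810 counts in replicate 1 and 594 in replicate 2. Of all microRNA counts this was 0.0750% in replicate 1, with an exact (Clopper-Pearson) 95% interval from 0.0729 to 0.0771. In replicate 2 the share was 0.0105%, with an interval from 0.00966 to 0.0114. Intervals and standard errors cover counting error only, since reads without molecular identifiers are not independent molecules. Of the 6, 3 had at least 10 counts in each library (Mir206, Mir1a-2 and Mir133a-1), beside 373 of all 2202 genes (16.9%). For every 1000000 multi-mapped reads there were 840 counts over the 6 genes in replicate 1 and 102 in replicate 2. The median of the members' mean CPM was 4.49, against 21.9 over the 491 genes with at least 10 counts in the sum. For the 4 copies, reads wholly within the shared stretches are missing from this median.

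Mir206 had 4607 counts in replicate 1 and 331 in replicate 2, which is 718 and 58.5 CPM. Its place by CPM among all genes was 90 in replicate 1 and 195 in replicate 2, and 111 genes had a higher mean. Its partner Mir133b, from the same noncoding gene, had 10 and 9 counts (1.56 and 1.59 CPM, mean 1.57 ± 0.0221, SD, n = 2). The libraries thus stood far apart for Mir206 and close together for Mir133b.

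Mir1a-2 had 136 and 190 counts, which is 21.2 and 33.6 CPM (27.4 ± 8.74, SD, n = 2). Its neighbour Mir133a-1 had 36 and 43 counts, which is 5.61 and 7.59 CPM (6.60 ± 1.40). Both had more CPM in replicate 2. At the locus on chromosome 2, Mir1a-1 had 9 and 19 counts (1.40 and 3.36 CPM, 2.38 ± 1.38) and Mir133a-2 had 12 and 2 (1.87 and 0.353 CPM, 1.11 ± 1.07). The value of Mir133a-2 in replicate 2 lay under 3 counts, and these genes had opposite orders between the libraries.

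**Figure D2:**
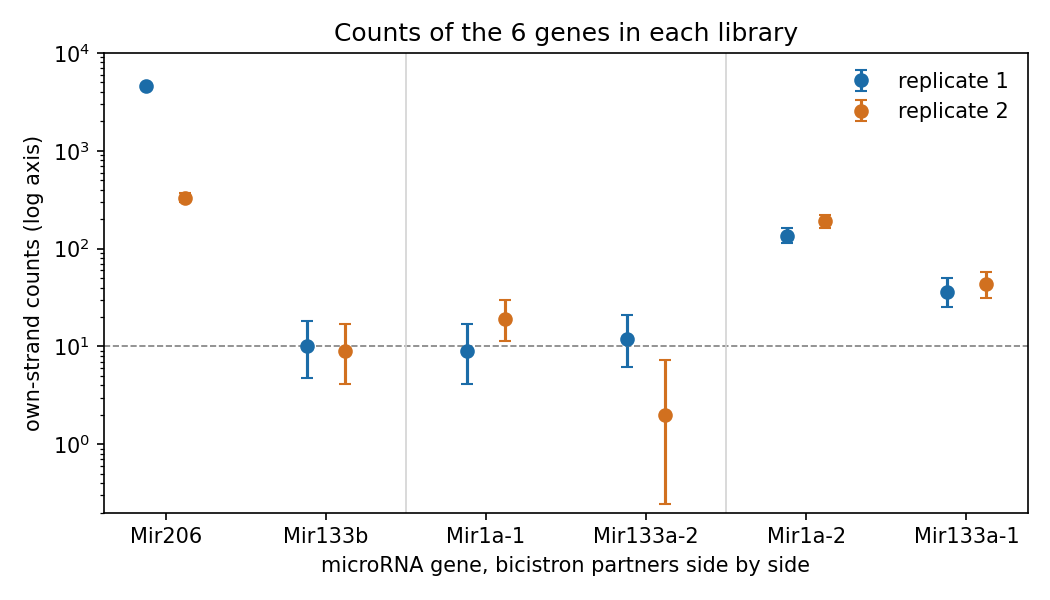
Own-strand counts of each of the 6 members (y axis, log scale) in replicate 1 and replicate 2, with exact 95% Poisson intervals as bars and a dashed line at 10 counts. Mir206 had 4607 and 331 counts, Mir1a-2 136 and 190, and the other 4 members lay between 2 and 43.

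By mean CPM the order was Mir206 (388 ± 466, SD, n = 2), Mir1a-2, Mir133a-1, Mir1a-1, Mir133b and Mir133a-2. Neighbours in that order overlapped in their 2 library values for Mir1a-1 with Mir133b and for Mir133b with Mir133a-2, and for no other neighbouring pair. Divided by the number of single-place windows of a hairpin, which serves as its countable length, the order was the same. Any reads wholly within the shared stretches of Mir1a-1, Mir1a-2, Mir133a-1 and Mir133a-2 are missing from either scale. Neither order thus ranks the products of these genes against those of Mir206 or Mir133b. Per window, Mir206 had 7.47 ± 8.97 CPM, Mir1a-2 0.622 ± 0.199, Mir133a-1 0.194 ± 0.0413, Mir1a-1 0.0486 ± 0.0282, Mir133b 0.0161 ± 0.000225 and Mir133a-2 0.0159 ± 0.0153. This scale does not weigh which windows a hairpin is processed into. Mir133b shared no window of 22 nt, but at 18 nt its single-place share was 96.1%. Its 3′ arm matched both miR-133a hairpins once 1 base was cut. How far loss of shared reads enters the level of any member was not tested.

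**Figure D3:**
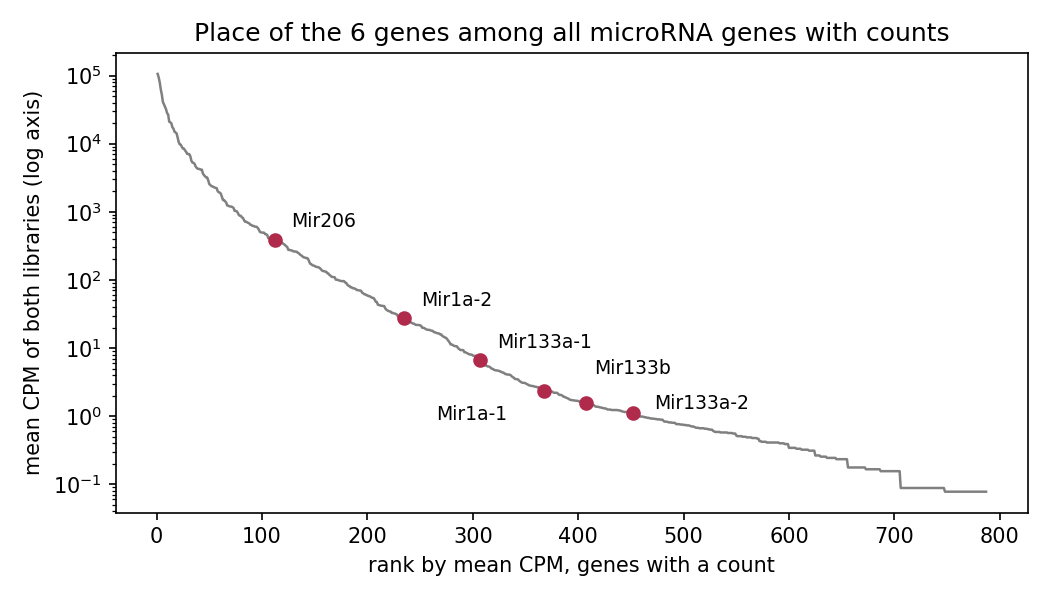
Mean CPM of both libraries (y axis, log scale) against the rank of that mean over all genes with a count (x axis), with the 6 members marked. Mir206 lay at rank 112, Mir1a-2 at 235, Mir133a-1 at 307, Mir1a-1 at 368, Mir133b at 407 and Mir133a-2 at 452.

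The libraries were compared gene by gene, for genes whose 2 counts summed to 10 or more, with an exact binomial test on TMM-scaled library sizes. A call needed a fold over 2 and an adjusted p under 0.05. Of the 491 genes tested, 55 (11.2%) were called. Of these, 18 (3.67%) were higher in replicate 1 and 37 (7.54%) in replicate 2. Scaling by total counts, which moves every log2 ratio up by 0.33, gave 39 and 22. All 6 members were tested and 2 were called, Mir206 as higher in replicate 1 and Mir1a-1 as higher in replicate 2. The median log2 ratio of replicate 1 over replicate 2 was −0.57 over the members and −0.02 over all genes tested.

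Mir206 had a log2 ratio of 3.28 with a counting standard error of 0.08, or 9.74-fold, and no tested gene had a higher one. Its fold, taken from the counts alone, had an exact 95% interval of 8.72 to 10.9. In edgeR's exact test, which adds a spread between libraries estimated from this pair, the adjusted p of Mir206 was 0.00303. It called 4 of the 491 genes (0.815%), namely Mir205 and Mir26a-2 as higher in replicate 2 and Mir185 and Mir206 as higher in replicate 1, a count small enough to name although Mir205 was picked after its values were seen. Mir206 was the only member among them.

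Mir1a-1 was higher in replicate 2 by 2.93-fold (log2 ratio −1.55, counting standard error 0.57), with an adjusted p of 0.0143 in the exact binomial test. That call rested on 9 and 19 counts. It was lost with total-count scaling (log2 ratio −1.22, exact binomial adjusted p = 0.0677) and with edgeR's exact test (adjusted p = 1). Mir1a-2 had a log2 ratio of −0.99 (counting standard error 0.16, 1.99-fold), just inside the fold threshold, with an exact binomial adjusted p of 2.1e-09. With total-count scaling its log2 ratio was −0.66. In edgeR's exact test, which adds the spread between libraries, its unadjusted p was 0.179.

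Mir133a-1 had a log2 ratio of −0.77 (1.70-fold), with an exact binomial adjusted p of 0.0453, and was not called because of its fold. That exact binomial adjusted p was 0.313 with total-count scaling, 0.0622 with DESeq2 size factors and 0.0714 without a count minimum. It was 0.0358 in the column for both strands and 0.0483 with TMM factors over all genes. For Mir133a-2 the log2 ratio was 1.81 with a counting standard error of 1.00. Its ratio without the added count was 4.20, with an exact interval of 0.936 to 38.7, so no difference was detected with TMM scaling (exact binomial adjusted p = 0.106). Under total-count scaling it was called, with a log2 ratio of 2.14 (exact binomial adjusted p = 0.0317). Mir133b had a log2 ratio of −0.37 and a ratio interval of 0.284 to 2.17 (exact binomial adjusted p = 0.757).

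**Figure D4:**
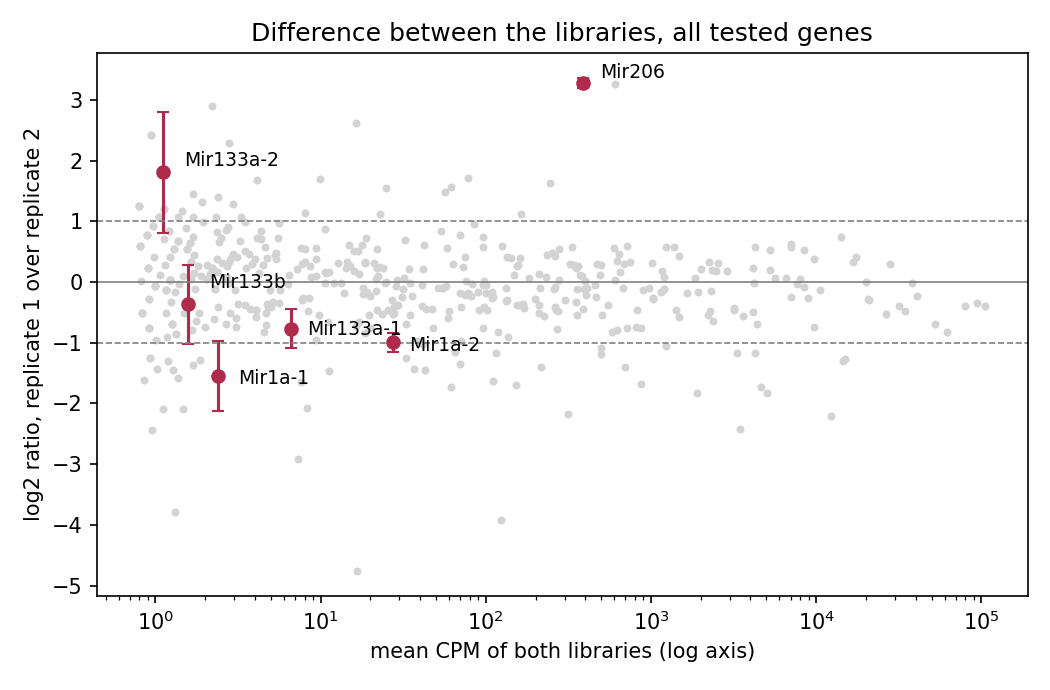
Log2 ratio of replicate 1 over replicate 2 (y axis) against mean CPM (x axis, log scale) for all 491 tested genes, with the 6 members and their counting standard errors in colour and dashed lines at a fold of 2. Mir206 lay above every other gene, at 3.28, while Mir1a-2, Mir133a-1 and Mir133b lay between the dashed lines.

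Within a bicistron, the share of counts held by the miR-1 family gene does not depend on the scaling of the libraries. Fisher's exact test takes reads as independent, so its p-values here and below cover counting noise alone and not the spread between animals. At the chromosome 18 locus, Mir1a-2 held 79.1% of the counts of Mir1a-2 and Mir133a-1 in replicate 1 (exact interval 72.2 to 84.9) and 81.5% in replicate 2 (76.0 to 86.3). No difference between these shares was detected beyond counting noise (Fisher's exact test, adjusted over 7 pairs, p = 0.612). At the chromosome 2 locus, Mir1a-1 held 42.9% in replicate 1 (21.8 to 66.0) and 90.5% in replicate 2 (69.6 to 98.8), with an adjusted Fisher's exact p of 0.00584. The shift in share went with 12 and 2 counts of Mir133a-2.

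At the chromosome 1 locus, Mir206 held 461 times the counts of Mir133b in replicate 1 and 36.8 times in replicate 2 (adjusted Fisher's exact p = 5.29e-06). Mir206 was above Mir133b in both libraries. Mir206 and Mir133b together made up 96.0% of the counts of all 6 members in replicate 1 and 57.2% in replicate 2 (adjusted Fisher's exact p = 4.07e-143). Both p-values of this locus measure counting noise and not the spread between animals. For the other members, any reads wholly within the stretches shared between copies are missing from this total. The shares thus cover assignable counts only and do not rank the loci by their RNA.

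Between copies, Mir1a-1 held 6.21% of the counts of the 2 miR-1 copies in replicate 1 (exact interval 2.88 to 11.5) and 9.09% in replicate 2 (5.56 to 13.8), with no difference detected beyond counting noise (adjusted Fisher's exact p = 0.494). Mir133a-2 held 25% of the counts of the miR-133a copies in replicate 1 (13.6 to 39.6) and 4.44% in replicate 2 (0.543 to 15.1), with an adjusted Fisher's exact p of 0.0135. Summed, the chromosome 2 locus held 10.9% and 8.27% of the counts of both copied loci (adjusted Fisher's exact p = 0.494). In both libraries the copies on chromosome 18 thus held most of the counts that could be assigned. Reads within the identical stretches can come from either copy and are not in these shares. Of the 7 pairs, 4 differed at an adjusted p under 0.05 and 3 did not pass. The pairs share genes and are not independent. Each of the 4 held Mir206 (4607 and 331 counts) or Mir133a-2 (12 and 2 counts).

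**Figure D5:**
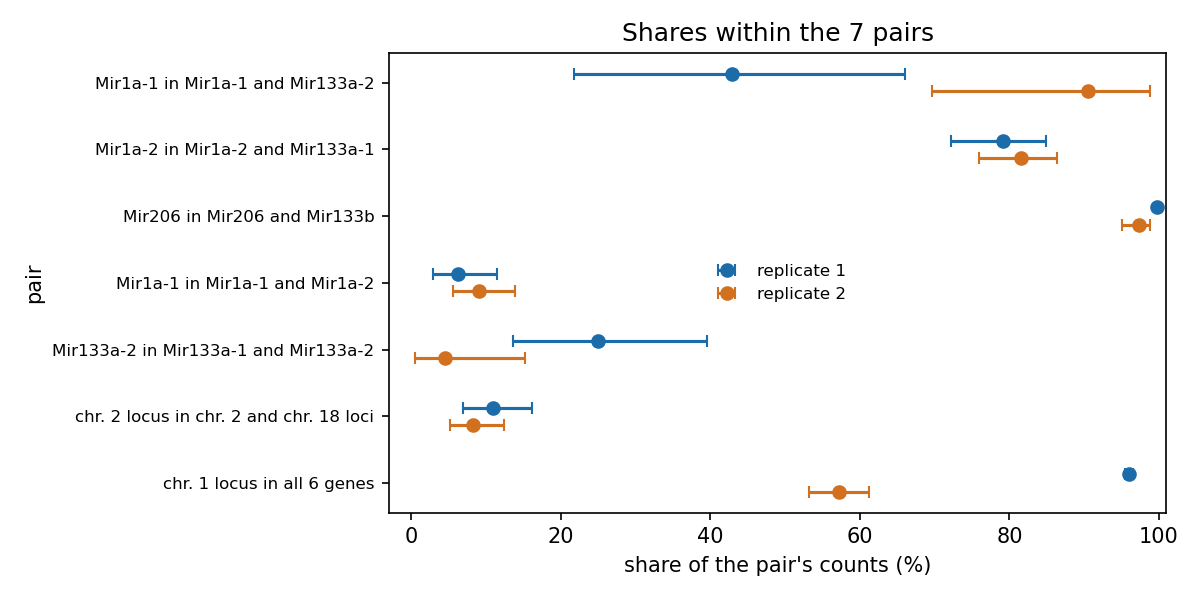
Share of a pair's counts (x axis, %) held by the first-named gene or locus of each of the 7 pairs in replicate 1 and replicate 2, with exact 95% intervals. The intervals of replicate 1 and replicate 2 were apart for Mir206 with Mir133b, for Mir1a-1 with Mir133a-2 and for the chromosome 1 locus in all 6 genes.

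Distances within the 3 bicistrons were set beside those of 104 adjacent pairs of tested microRNA genes on the same strand within 10000 bases, a comparison chosen after values were seen. The difference of log2 ratios between partners was 3.65 (counting standard error 0.65) for Mir206 and Mir133b, and none of the other 103 pairs had a larger one. For Mir1a-1 and Mir133a-2 it was 3.36 (1.15), with 2 larger, one of them the pair of Mir206. For Mir1a-2 and Mir133a-1 it was 0.23 (0.36), with 77 larger. The median over the pairs was 0.57 and the 90th percentile 1.58. Partners thus had unlike ratios at the chromosome 1 and 2 loci and like ratios at the chromosome 18 locus, with wide counting errors where a partner had few counts. The rank of the pair of Mir206 is not separate from the ratio of Mir206 itself, the highest of all tested genes.

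The counts lay on the annotated strand. The column for the opposite strand was 0 in both libraries for every member except Mir1a-2, which had 8 and 6 there, so that its own strand held 94.4% and 96.9%. Mir1b, which encloses it on the other strand, had 8 and 6 on its own strand and 137 and 190 on the opposite strand. In the column for both strands together Mir1a-2 had 0 counts, and 1223777 and 1177754 reads of all genes were listed there as ambiguous.

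Among the 295 other genes with at least 100 counts in the sum, those nearest to Mir206 in log2 ratio over the 2 libraries were Mir185 (7199 and 526 counts, log2 ratio 3.26), Mir3074-1 (187 and 21, 2.61), Mir505 (803 and 172, 1.71), Mir137 (103 and 22, 1.69) and Mir451a (2515 and 566, 1.64). Mir451a and Mir137 are also on the marker lists above, so every list is given by its calls. Of the erythroid list, 2 of 4 tested genes were higher in replicate 1 (Mir144 and Mir451a) and none in replicate 2, with a median log2 ratio of 1.01. Of the neuronal list, 1 of 3 was higher in replicate 1 (Mir137) and the other two were not called, with a median of 0.08. The leukocyte list was split, with Mir142 higher in replicate 1, Mir223 higher in replicate 2 and 3 genes not called. Higher in replicate 2 were 2 of 5 tested fibroblast genes (Mir21a and Mir22), 3 of 7 epithelial genes (Mir200b, Mir203 and Mir205) and 1 of 3 myosin intron genes (Mir499), with no gene of these 3 lists higher in replicate 1. The other tested genes of those lists were not called, with log2 ratios up to 0.58 for the fibroblast list, 0.32 for the epithelial list and 0.52 for the myosin list. No gene of the endothelial, smooth muscle, liver or brown fat lists was called. All these calls are of the exact binomial test, whose noise is counting noise alone. Over all tested genes, that test called 3.67% as higher in replicate 1 and 7.54% as higher in replicate 2. Of the list genes named here as called, edgeR's exact test called only Mir205. Marker lists thus held genes called in either direction in the exact binomial test. The part of other cells in the difference of Mir206 was not tested. In heart tissue measured in bulk, fewer cells of a type and less RNA per cell cannot be told apart.

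Over a list of 33 other microRNA genes of muscle, 32 were tested, none was higher in replicate 1 (3.67% of all tested genes were) and 6 were higher in replicate 2 (7.54% of all tested genes were), namely Mir26a-2, Mir27b, Mir29c, Mir31, Mir499 and Mir503. The other 26 tested genes were not called. Log2 ratios ran from −3.92 for Mir26a-2 to 0.96 for Mir222, with a median of −0.28, and Mir489 had no count. With total-count scaling, Mir222 was called as higher in replicate 1 and 4 genes as higher in replicate 2. With edgeR's exact test, 1 gene of the list was called, Mir26a-2 as higher in replicate 2. Mir208a exceeded Mir206 in CPM by 15.2 times in replicate 1 and 103 times in replicate 2, and Mir499 by 3.70 and 128 times.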

How the data were processed

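The 2 microRNA libraries of heart tissue, in 1 group, were read from raw counts per gene, which the authors deposited without normalization and without pooling. The deposited descriptions name mm10 and GENCODE M21. Which aligner, counter and trimming were used is not given in the sources used here. That the 3 columns hold both strands, the gene's own strand and the opposite strand is inferred from the STAR-like layout. The own-strand column was used, and multi-mapped, unmapped and other reads outside genes stayed out of library sizes. They left 44.4% of 14450527 reads and 42.0% of 13495259 assigned to genes. All 2202 identifiers matched M21.

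CPM used a library's own-strand total. Genes with at least 10 counts in the sum were compared by an exact binomial test (two-sided, conditional on the sum) on TMM-scaled totals, with Benjamini-Hochberg adjustment and 0.5 added to each count in log2 ratios. The noise is counting noise alone. Alternatives were other scalings, no minimum, the other column, a fold of 1.5 and edgeR's exact test. The TMM factors were taken over genes with at least 10 counts after both versions had been seen, and factors over all genes served as an added alternative. The per-window scale and the neighbour pairs were also chosen after values were seen. Hairpins for the window search were GENCODE M21 transcripts. Variants of the CAST parent were not examined.

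The members and lists were chosen with earlier results of these data known. The rule for named genes took the members, microRNA genes overlapping them, the myosin intron genes, the 5 genes nearest to Mir206 in log2 ratio and the muscle list by counts and range. Python 3.11.15, numpy 2.4.6, scipy 1.17.1, matplotlib 3.10.9, R 4.3.3, edgeR 4.0.16 and DESeq2 1.42.0 were used.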

Additional observations from a re-analysis of the deposited data

How the results depend on the processing

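Of the 6 members, 2 were called. The number was 4 with a fold over 1.5 (Mir1a-2 and Mir133a-1 added) and 1 with edgeR's exact test (Mir206 alone). Over all 491 genes tested, 55 were called, 97 with a fold over 1.5 and 4 with edgeR. TMM factors over all genes, an alternative chosen after seeing the data, gave 2 members and 55 genes. Mir206 was called in every alternative run, with log2 ratios from 3.26 to 3.62, and no log2 ratio of a member changed its sign. Scaling by total counts lost the call of Mir1a-1 and added that of Mir133a-2. Leaving out a library leaves only the value of the other, with no test. No paired analysis was possible because there is 1 group. In the column for both strands together Mir1a-2 has 0 counts, so it gave no ratio for that gene. Depth limits Mir1a-1, Mir133a-2 and Mir133b, which had from 2 to 19 counts a library.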
